A study of Mus musculus with 6 samples.

Results

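The head surface ectoderm of mouse embryos that lack Pax6 was described from 3 bead arrays, out of 6 in the series. Each embryo, taken at E10.25, gave 1 array: both areas where the lens would form (2 per embryo) were cut by laser from frozen, eosin-stained sections, and their RNA was amplified. The 3 embryos, numbered 1 to 3 as in their titles, were Pax6-/- on a mixed FVB and 129 background, and the tissue is named surface ectoderm in the labels. The labels do not describe the Pax6 allele or the sex of the embryos. The other 3 arrays, from the lens placode of wild-type embryos, were not compared here. A probe was taken as above background when its deposited detection p-value, which sets it against negative-control beads, was under 0.05. Of 46632 probes, 12298 (26.4%) passed on all 3 arrays. Of 17711 genes named on the array, 7128 (40.2%) had such a probe, and their levels are described below.

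Surface ectoderm is the single-layered epithelium that covers the embryonic head. Over the optic vesicle it thickens into the lens placode, and elsewhere it becomes epidermis, corneal epithelium and other sensory placodes. Pax6, a paired-box and homeobox transcription factor, is required in this epithelium for the lens to form, and homozygous loss leaves mice without eyes. AP-2 and grainyhead factors are known regulators of ectodermal and epidermal fate, while Eya, Sine oculis homeobox, Sox and Meis factors mark the placode-forming region.

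Levels are normalised log2 intensities, given for embryos 1, 2 and 3 in that order or as mean ± SD with n = 3 embryos. A difference of 1 is a doubling of the signal. The lowest level above background was 5.16 and the median over the 7128 genes was 7.42. Where genes are ordered by level, the order is that of probe brightness, which depends on the probe as well as on the transcript. Raw median intensities were 57.1 to 62.8, and each array had 35% to 37.8% of its probes above background. The arrays correlated at 0.851 to 0.867 across the 7128 genes, which are not independent replicates. The number of arrays limits the precision of every value.

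Embryo 1 differed from embryos 2 and 3 in sex-linked transcripts. Xist, the non-coding RNA that coats the inactive X chromosome in female cells, read 5.60, 10.40 and 10.54. A second, dimmer Xist probe was above background in embryos 2 and 3 and not in embryo 1. Uty, a Y-linked histone demethylase gene, read 7.60 in embryo 1 and was not above background in the others. The Y-linked translation factor gene Eif2s3y (7.14) and the demethylase gene Kdm5d (5.60) were likewise above background in embryo 1 alone. Of 22 probes for 13 Y-linked genes, 5 were above background in embryo 1 and 1 each in embryos 2 and 3. That last probe, for Zfy2, was near the background limit on all 3 arrays, at 5.35, 5.34 and 5.41.

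The 5 genes chosen to mark this ectoderm were above background in every embryo. Tfap2b, an AP-2 transcription factor of ectoderm and neural crest, read 11.36, 11.15 and 11.24 and ranked 122 of 7128 by level. Meis2, a TALE homeobox factor, read 10.76, 10.59 and 10.71 (rank 313). On these probes both differed little between the embryos. Of the 3 dimmer Tfap2b probes above background throughout, 2 were lowest in embryo 3 (7.88, 7.55 and 6.39, and 8.26, 8.16 and 6.57) and 1 was highest there (9.84, 9.91 and 10.23). The dimmer Meis2 probe above background throughout, at 9.17, 9.11 and 8.28, was lowest in embryo 3. Slc38a8, an amino acid transporter gene, read 9.46, 9.04 and 9.33, and Pkp3, which encodes a desmosomal plakophilin, read 8.88, 9.47 and 9.32. Foxd1, a forkhead factor gene better known from retina and mesenchyme than from ectoderm, read 7.66, 8.59 and 7.89. Slc38a8 and Foxd1 are not defining epithelial markers, so the labelled tissue was also checked against E-cadherin and keratins, given next. Pax6 transcript itself read 9.66, 9.80 and 9.99 on its brightest probe, and all of its 3 probes passed in every embryo. A probe outside the altered part of the allele says nothing about the genotype.

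**Figure D1:**
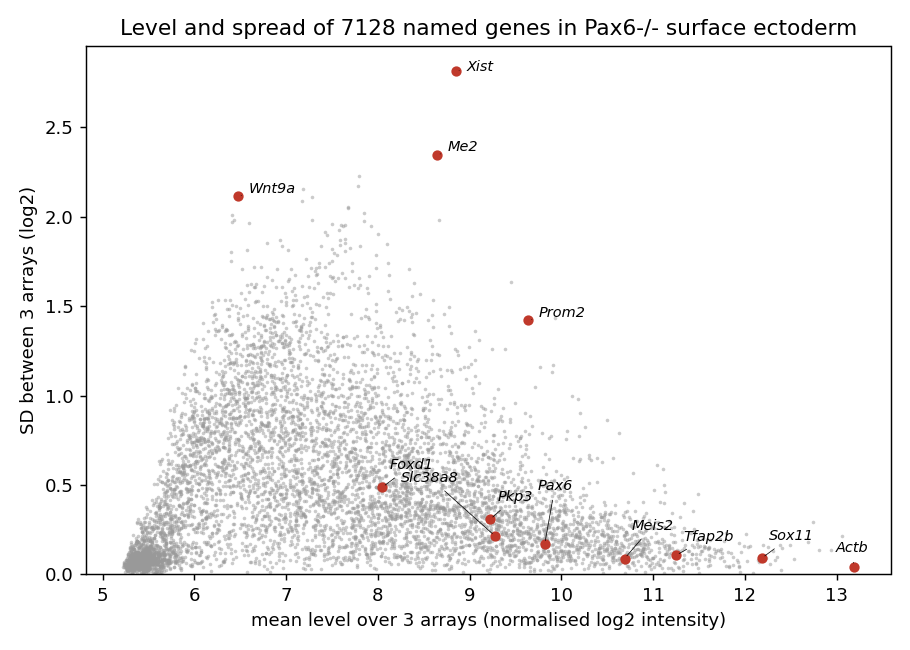
Mean level (x axis, normalised log2 intensity) against SD between the 3 embryos (y axis, log2) for the 7128 named genes above background on all 3 arrays, with 12 genes marked in red. Spread was small among the brightest genes, such as Actb at 13.19 with an SD of 0.04, and Xist stood at the top with an SD of 2.82.

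Genes of epithelial junctions and simple-epithelium keratins were above background in all 3 embryos. Of 37 junction, keratin and epithelial genes on the array, 23 (62.2%, against 40.2% of all named genes) were above background on all 3 arrays, with a median level of 8.78 and a median SD of 0.31. Cdh1, which encodes E-cadherin, read 9.60, 9.45 and 9.17. Epcam, a cell adhesion molecule of epithelia, read 8.83, 8.68 and 8.84. The simple-epithelium keratin genes Krt8 (8.36 ± 0.47) and Krt18 (9.32 ± 0.30) and the keratin gene Krt7 (9.03 ± 0.30) were well above background. Keratin genes of stratified epidermis were dim or undetected. Krt5 read 7.33, 7.45 and 5.88, Krt17 stood at 5.35 ± 0.09, and Krt14 and Krt15 were not above background in any embryo. The brightest members were the catenin genes Ctnnb1 (11.79 ± 0.05) and Ctnna1 (10.42 ± 0.12) and Lsr, a gene of tricellular tight junctions (10.30 ± 0.05).

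A few of the junction, keratin and epithelial genes differed widely between embryos. Prom2, a prominin of epithelial membrane protrusions, read 10.70, 10.19 and 8.02, so embryo 3 was lowest. Perp, a p63-regulated desmosome gene, read 9.12, 8.94 and 6.59, again lowest in embryo 3. Ctnnd1, which encodes p120-catenin, read 8.04, 9.92 and 7.16. Its other probe above background on all 3 arrays did not share that order, being highest in embryo 3. The tight junction gene Cldn3 read 9.05 in embryo 1 and 5.35 in embryo 3 and was not above background in embryo 2.

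Regulators of surface ectoderm were led by AP-2 and distal-less factors. Of 22 on the array, 12 (54.5%, against 40.2% overall) were above background on all 3 arrays, with a median level of 8.18 and an SD above 1 for none. Beside Tfap2b, the distal-less homeobox genes Dlx3 (10.34 ± 0.32) and Dlx5 (8.68 ± 0.12) and the AP-2 genes Tfap2c (9.26 ± 0.50) and Tfap2a (8.74 ± 0.57) were the brightest. Tfap2a read 9.32, 8.73 and 8.18, highest in embryo 1 on this probe, while its 2 other probes above background on all arrays were highest in embryo 3. The grainyhead genes Grhl2 (8.33 ± 0.67) and Grhl3 (6.60 ± 0.72) were both highest in embryo 1. Trp63, the p63 gene needed for stratified epidermis, stood at 7.48 ± 0.22. Esrp1, an epithelial splicing regulator, and Ovol2, a zinc finger factor that keeps cells epithelial, stood at 8.03 ± 0.38 and 7.99 ± 0.34. Tfap2e, Grhl1, Msx1 and Pitx1 were among the 6 members not above background in any embryo, and Msx2, at 5.30 ± 0.06, lay just above the limit.

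Among all transcription factor genes recognised by family name, the brightest was Sox11, a SoxC factor of embryonic progenitors. It read 12.19, 12.09 and 12.27 (rank 19), and its 3 further probes were also above background in every embryo. Its relative Sox12 stood at 11.25 ± 0.14. Adnp, a homeobox zinc finger gene (11.74 ± 0.14), Srf, the serum response factor of actin genes (11.54 ± 0.13), and Nr2f1, an orphan nuclear receptor gene (11.50 ± 0.01), came between them. Sox9 (11.23 ± 0.10), Eya1 (11.17 ± 0.16), Nfatc4 (10.96 ± 0.17) and Smad3 (10.91 ± 0.24) followed Tfap2b, then Meis2, Nfatc3, Ybx1, Smad4 and Tef at 10.69 to 10.43. All 15 had an SD of 0.32 or less on the probe used. A dimmer Eya1 probe above background throughout read 5.44, 6.83 and 9.30. For Nfatc3 a dimmer probe read 5.38, 7.71 and 6.23, while the 3 further Sox11 probes differed little between embryos. By family, 6 of 11 AP-2 and grainyhead genes were above background on all 3 arrays, against 58 of 183 homeobox genes (31.7%), 12 of 41 Fox genes (29.3%) and 7 of 18 Sox genes (38.9%). Shares near or under the 40.2% of all named genes single out no family.

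**Figure D2:**
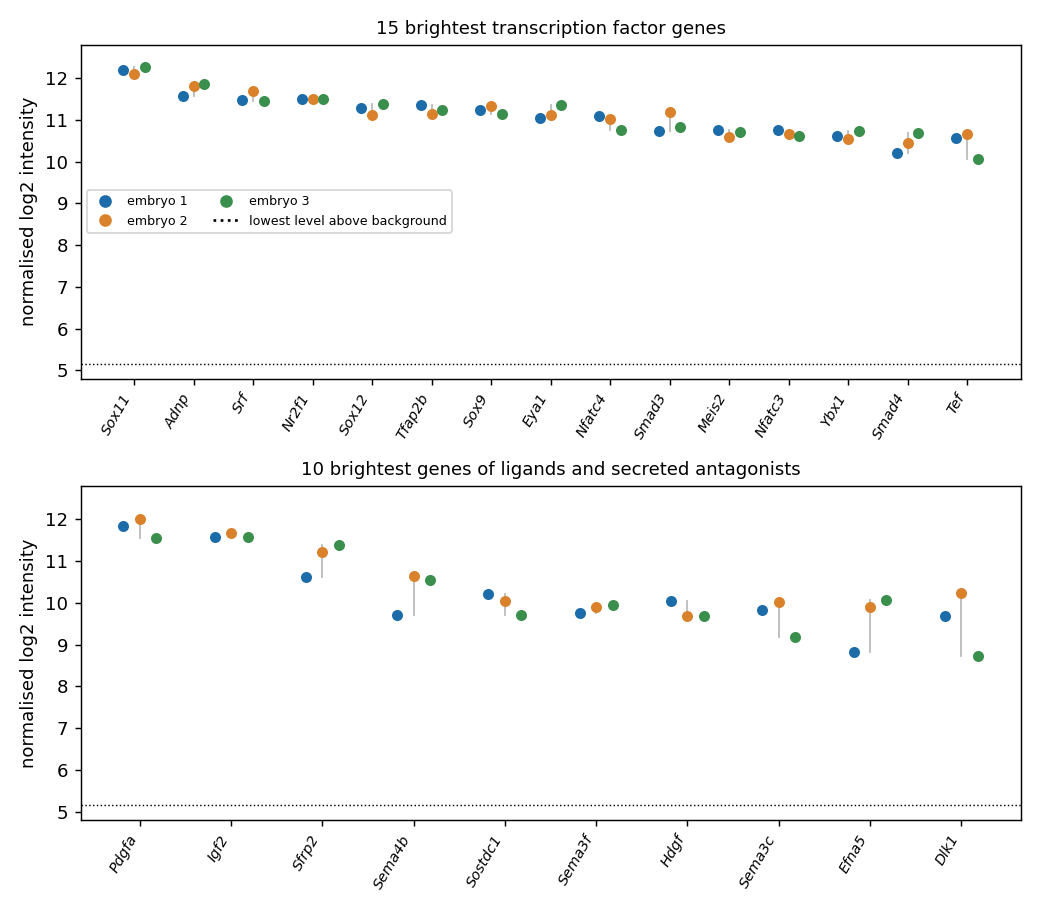
Normalised log2 intensity (y axis) of the 15 brightest transcription factor genes and the 10 brightest genes of ligands and secreted antagonists (x axis), with 1 point per embryo and a grey line over their span. The dotted line is the lowest level above background, 5.16, and the transcription factor genes lie between 10.06 and 12.27 in every embryo.

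Preplacodal and placode genes were measured next. Of 30 preplacodal and placode genes on the array, 20 (66.7%, against 40.2% overall) were above background on all 3 arrays, with a median level of 8.57. Sox11, Sox12, Eya1, Meis2, Pbx2 (10.20 ± 0.29) and Meis1 (9.86 ± 0.10) were the brightest. Mab21l1, a gene needed for the lens, read 8.60, 8.89 and 9.33. Sox2, a partner of Pax6 at lens enhancers, read 6.82, 7.87 and 6.49 on the probe used, with its second probe highest in embryo 3, and the homeobox gene Six3 read 6.13, 5.98 and 5.29. Dach1, a partner of Eya proteins, read 5.90, 7.99 and 7.02, lowest in embryo 1, and 5.60, 5.59 and 6.28 on a dimmer probe. Irx3 was above background in 2 embryos and reached 8.85 in embryo 2 against 5.76 in embryo 3. Pax8 and Irx1 were not above background in any embryo.

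On the list of lens regulators and lens proteins, few genes were above background throughout. Pax6, Mab21l1, Sox2 and Six3, given above, are not on this list and were above background in every embryo. The share therefore depends on which genes were listed. Only 1 of the 28 listed genes on the array (3.57%, against 40.2% of all named genes) was above background in every embryo. That gene was Mafg, a widely expressed small Maf, at 8.74 ± 0.29. None of the arrays had Maf, Pitx3, Foxe3, Hsf4 or Sox1 above background, all of them regulators of lens development, and 18 members in all were so. A few others were above background in 1 or 2 embryos. Cryab, the alpha-B-crystallin and small heat shock protein gene, read 7.58 in embryo 2 and 7.44 in embryo 3 and was at background in embryo 1. Mip, the fibre cell water channel gene, read 6.60 in embryo 1 and 6.40 in embryo 2. Cryba1 (6.05) and Prox1 (5.35) were above background in embryo 1 alone, and Crybb3 (6.16) and Cryge (5.66) in embryo 3 alone.

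**Figure D3:**
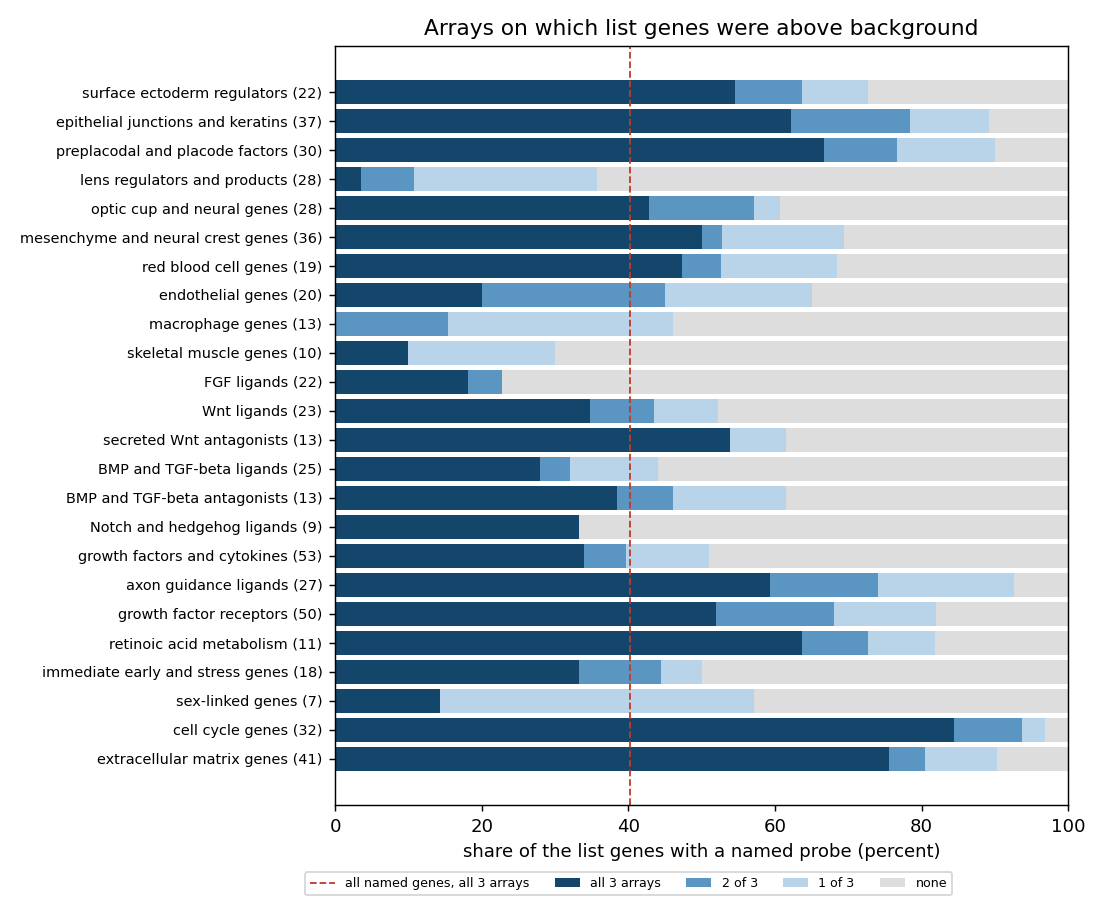
Share of each list's genes with a named probe (x axis, percent, number of genes in brackets) that were above background on all 3, 2, 1 or none of the arrays. The dashed line is the share of all named genes above background on all 3 arrays, 40.2%, which the lens list (3.57%) did not reach and the cell cycle list (84.4%) passed.

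The secreted signals with the brightest probes were Pdgfa, a platelet-derived growth factor, and Igf2, an imprinted insulin-like growth factor of the embryo. Pdgfa read 11.85, 12.00 and 11.55, and Igf2 read 11.58, 11.68 and 11.59. Of 185 genes of ligands, secreted antagonists and growth factors on the array, 68 were above background on all 3 arrays. That share is near the 40.2% of all named genes and does not single out this class. The other leading members were Sfrp2, Sema4b, Sostdc1, Sema3f, Hdgf, Sema3c, Efna5 and Dlk1, at 11.08 to 9.55. Dlk1, a non-canonical Notch ligand, stood at 9.55 ± 0.77, highest in embryo 2 and lowest in embryo 3 (8.73), and its second probe was much dimmer, at 5.92, 6.39 and 5.40.

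Wnt ligands signal through frizzled receptors, and secreted antagonists limit them. Of 13 secreted antagonists, 7 (53.8%) were above background in every embryo, with a median of 8.29, and of 23 Wnt and R-spondin genes 8 (34.8%), with a median of 6.34. Over all named genes the share was 40.2% and the median 7.42, and the difference between the 2 lists was not tested. Sfrp2, which binds Wnt proteins, read 10.62, 11.22 and 11.38, lowest in embryo 1. Sostdc1, an antagonist of both Wnt and BMP, read 10.21, 10.05 and 9.71. Dkk3 stood at 9.36 ± 0.18 and Sfrp1 at 8.29 ± 0.77, highest in embryo 1 (9.17), while its other probe was highest in embryo 2, at 7.10, 9.31 and 5.79. Wnt2 was the brightest Wnt ligand, at 8.65, 9.04 and 7.58. Wnt9a read 5.20, 5.30 and 8.91, near background in embryos 1 and 2 and bright in embryo 3, with an SD of 2.12 that ranked sixth of all named genes. Its second probe was not above background on any array. Wnt2b was the converse, at 7.81 in embryo 1 and 5.63 and 5.60 in the others, but its second probe was near background throughout, at 5.20, 5.33 and 5.37.

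BMP and FGF ligands have known roles in lens induction. Of 25 genes listed as BMP and TGF-beta ligands, 7 (28%, against 40.2% of all named genes) were above background in every embryo. These include Bmp1 (5.60 ± 0.11), which encodes a protease and not a ligand. Bmp4, which is required for lens induction, read 7.64, 9.55 and 9.74, lowest in embryo 1. On a second, dimmer Bmp4 probe embryo 2 was highest, at 8.93, and embryo 3 was not above background. Bmp7, also needed for lens induction, stood at 6.48 ± 1.43, highest in embryo 2 (8.09) and lowest in embryo 3 (5.34), and on its other probe was highest in embryo 1. The extracellular BMP modulators Twsg1 (9.22 ± 0.18) and Fstl1 (9.21 ± 0.58) were the brightest of 5 of 13 antagonists above background throughout, while Nog and Chrd were not above background in any embryo. Of 22 FGF genes, 4 (18.2%) were above background in every embryo and 17 in none. Fgf15 led them at 7.47, 8.70 and 9.45.

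Receptors for these signals were also measured. Of 50 growth factor receptor genes, 26 (52%, against 40.2% of all named genes) were above background in every embryo. Fgfr2, whose epithelial isoform receives FGF signals, read 11.53, 11.35 and 11.06. Other Fgfr2 probes above background throughout were far dimmer, at 7.39 ± 0.07 and 5.68 ± 0.51. Ephb4, an ephrin-B2 receptor, read 11.45, 11.11 and 11.02, with a dimmer probe highest in embryo 3. The activin and TGF-beta receptors Acvr2b (10.44 ± 0.15) and Tgfbr1 (10.14 ± 0.31) came next, and Bmpr1a stood at 7.92 ± 0.39, highest in embryo 3. The other Bmpr1a probe above background throughout was lowest in embryo 3, at 8.65, 8.45 and 5.61. Fzd10, a Wnt receptor, read 9.11, 5.98 and 5.97, bright in embryo 1 alone, and the Wnt co-receptor Lrp6 read 8.62, 7.77 and 5.70. Of 11 retinoic acid genes, 7 (63.6%, against 40.2% overall) were above background throughout. Cyp26b1, which degrades retinoic acid, read 10.27, 9.85 and 9.29. The synthesis enzymes Aldh1a1 (8.96 ± 0.35) and Aldh1a3 (7.96 ± 0.41) were dimmer on their probes, and Aldh1a2 was not above background in any embryo.

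Axon guidance ligands and matrix proteins act outside the cell as well. Of 27 axon guidance ligands, 16 (59.3%, against 40.2% of all named genes) were above background in every embryo, led by Sema4b (9.71, 10.64 and 10.54), Sema3f (9.87 ± 0.10), Sema3c (9.68 ± 0.44) and the ephrin gene Efna5 (8.83, 9.90 and 10.08). Of 41 matrix and matrix receptor genes, 31 (75.6%) were above background throughout, with a median of 8.13. The heparan sulphate proteoglycan genes Agrn (10.89 ± 0.18) and Hspg2 (10.82 ± 0.17) were the brightest, followed by Frem2 (10.56 ± 0.10), a Fraser complex gene of the epidermal basement membrane, and the integrin gene Itgb1 (10.49 ± 0.22). Tnc, Lama1, Fbln2 and Itgav were not above background in any embryo. Embryo 1 was the highest of the 3 in 17 of the 31, while over all 7128 genes it was highest in 27.3%.

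Among all named genes Actb, which encodes cytoplasmic beta-actin, had the brightest probe, at 13.21, 13.21 and 13.14. Snx10, a sorting nexin gene, read 13.14, 12.81 and 13.21, Dpysl2, a cytoskeletal regulator of the CRMP family, 12.93, 13.08 and 12.81, and the nucleosome-binding gene Hmgn1 12.96, 12.73 and 12.72. The 20 brightest went on with Kdm7a, Lypla2, Tubb2b, Hmgb1, Rpl36a, Tuba1a, Eif5a, Tubb5, Lasp1, Ptma, Rpl41, Calm2, Calm3, Eef1d, Sox11 and Srsf5, at 12.74 to 12.18. Of the 50 brightest, 5 were ribosomal protein genes, 5 actin or tubulin genes, 4 translation factor genes and 3 splicing genes. Tubulin, actin and ribosomal genes have near-identical copies that a probe may not tell apart. Brightness also differed between probes of a gene. The second Snx10 probe was above background in embryo 1 alone, and none of the other 3 Kdm7a probes was above background on all arrays.

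Cell cycle genes were measured as signs of proliferation. Of 32 cell cycle genes, 27 (84.4%, against 40.2% of all named genes) were above background in every embryo, with a median of 8.78. Ccnd1, cyclin D1, stood at 11.94 ± 0.17, the mitotic kinase gene Plk1 at 11.61 ± 0.08 and the replication helicase genes Mcm4, Mcm5 and Mcm6 at 11.44 ± 0.35, 11.33 ± 0.26 and 11.29 ± 0.11. Cdkn1c, an inhibitor of cyclin-dependent kinases, stood at 10.17 ± 0.14. Of 18 immediate early and stress genes, 6 (33.3%, against 40.2% overall) were above background throughout, the brightest being the chaperone genes Dnajb1 (11.14 ± 0.11) and Hsph1 (10.32 ± 0.18). Fos, Fosb, Egr1 and Atf3, which rise quickly on handling, were not above background in any embryo.

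Genes that mark other tissues were measured as well. Fewer cells of a type and less RNA per cell cannot be told apart in such pooled tissue. Among red cell genes, of 19 on the array, 9 (47.4%, against 40.2% of all named genes) were above background on all 3 arrays. Their summed linear signal was 5616, 5732 and 3649. That sum leaves out Hbb-bs, whose brightest probe was highest in embryo 3, so it does not cover all globin signal. Hbb-bh1, an embryonic beta-like globin, read 11.27, 11.51 and 10.83, Hba-a1, an alpha globin, 10.29, 10.24 and 9.50, and Hba-x, the embryonic zeta globin, 9.49, 9.58 and 8.72. Embryo 3 was lowest for each of these. Over the 6 globin genes, 9 of 10 probes above background throughout were lowest in embryo 3, the exception being 1 of 2 probes for Hbb-bs (10.50, 11.14 and 11.68). Over all named genes embryo 3 was lowest in 32.1%. Alpha globin copies and adult beta globin copies are near-identical, so their probes may share signal. Alas2 and Slc4a1 did not share this order. Alas2, the haem synthesis enzyme of red cells, read 5.96, 6.52 and 7.54, Slc4a1, the anion exchanger, 8.19, 7.55 and 8.07, and the erythroid factors Gata1 and Klf1 were not above background in any embryo. Mt1 (7.65, 8.07 and 6.04) and Car2 (7.01, 6.80 and 5.94), which other cells also express, were lowest in embryo 3 like the globins.

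The promoters of Hba-x and Hba-a1 are shown because both genes lie in the alpha globin cluster on chromosome 11 and were lowest in the same embryo. Each run is the 250 bases before the RefSeq start on the plus strand of GRCm38.p6, at chr11:32276350-32276599 for Hba-x and chr11:32283422-32283671 for Hba-a1. Capitals mark matches, on either strand, to GATAA (the core of a GATA factor motif), CACCC (a motif of Krüppel-like factors), TATAAA and CCAAT. The shorter GATAA was searched after a longer GATA motif gave no match in these windows.
Hba-x: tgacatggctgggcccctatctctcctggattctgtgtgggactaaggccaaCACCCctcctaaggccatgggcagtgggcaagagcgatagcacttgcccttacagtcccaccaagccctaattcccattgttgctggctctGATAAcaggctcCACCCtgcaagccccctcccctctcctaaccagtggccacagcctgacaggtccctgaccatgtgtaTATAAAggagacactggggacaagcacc
Hba-a1: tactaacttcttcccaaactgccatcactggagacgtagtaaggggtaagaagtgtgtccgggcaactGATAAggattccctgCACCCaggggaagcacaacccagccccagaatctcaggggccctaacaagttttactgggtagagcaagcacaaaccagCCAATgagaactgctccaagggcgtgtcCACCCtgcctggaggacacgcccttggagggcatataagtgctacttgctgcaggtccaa
Hba-x held 1 GATAA, 2 CACCC and 1 TATAAA, which began 28 bases before the start. Hba-a1 held 1 GATAA, 2 CACCC and 1 CCAAT. Among 32851 promoter windows of the same length in the table, 22.6% held GATAA, 52% CACCC, 12.4% TATAAA and 33.8% CCAAT, so CACCC in particular is common. A match describes these letters and not a bound site.

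The optic cup lies directly beneath the lens ectoderm in the normal eye. Of 28 optic cup and neural genes, 12 (42.9%) were above background throughout, near the 40.2% of all named genes, with a median of 7.04 (7.42 overall) and summed linear signals of 4916, 5870 and 5953. Nr2f1, Nr2f2 and Zic1, the brightest of them, are not restricted to the optic cup. Among its defining markers, Six6 read 6.29, 5.91 and 8.21 and Rax 5.95, 6.36 and 7.80. Embryo 3 was highest for both. The pigment cell genes Pmel (6.28, 5.89 and 7.64) and Dct (5.62 in embryo 1, 8.71 in embryo 3, not above background in embryo 2) were also highest in embryo 3, whereas Otx2 (7.48, 8.49 and 6.76) and Lhx2 (5.85, 6.92 and 5.32) were highest in embryo 2. Embryo 1 was highest for none of the 12, and over all named genes it was highest in 27.3%. The neuronal genes Neurog1, Neurod1, Stmn2 and Dcx were not above background in any embryo.

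Of 36 mesenchyme and neural crest genes on the array, 18 (50%, against 40.2% of all named genes) were above background throughout, with a median of 7.45 (7.42 overall) and summed linear signals of 7025, 8033 and 6535. Embryo 2 was highest in 11 of the 18, while over all named genes it was highest in 39.3%. Sox9, Col5a1 (10.01 ± 0.26) and Vim (9.73 ± 0.41) were the brightest, and ectoderm or placodes can express Sox9 and Vim as well. Of the defining markers, Prrx1, a mesenchymal homeobox gene, read 7.82, 8.05 and 8.01 on the probe used. A dimmer Prrx1 probe above background throughout read 5.71, 6.45 and 5.47. Its remaining probes, each above background on 2 arrays, read 8.47, 7.07 and 4.91, and 5.89, 5.08 and 7.70. Pdgfra stood at 5.29 ± 0.04 on the probe used, close to the limit, and its other probe reached 7.77 in embryo 2 and was not above background in embryo 1. Twist1 was above background in embryos 1 and 2 (6.58 and 5.34), and Col1a1 in embryo 1 alone (6.94). Col3a1, a fibrillar collagen gene, read 5.30, 7.78 and 5.91. The neural crest factors Sox10 and Foxd3 were not above background in any embryo.

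**Figure D4:**
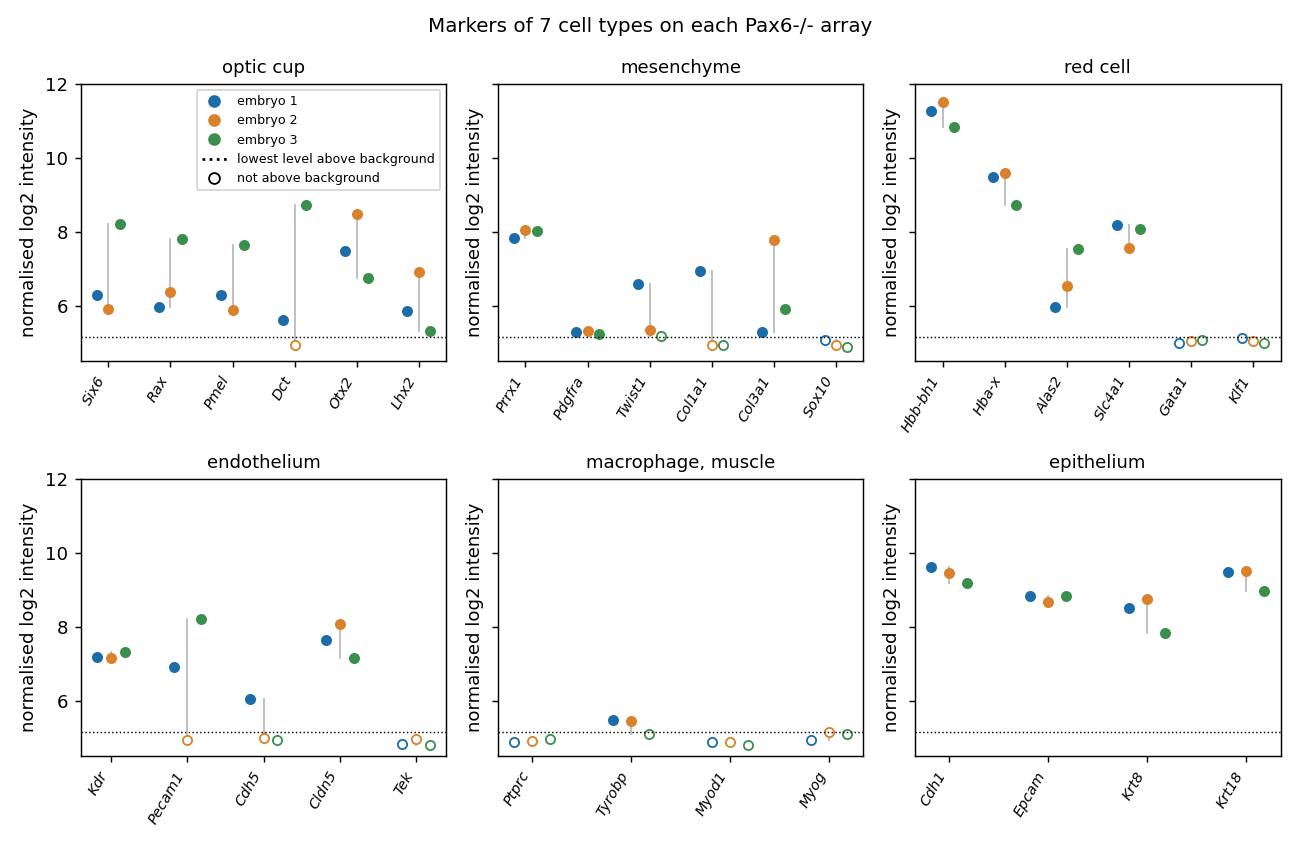
Normalised log2 intensity (y axis) of marker genes (x axis) by cell type, with 1 point per embryo and a grey line over their span. Open points are not above background, and the dotted line is the lowest level above background, 5.16. The 4 epithelial markers drawn lie above background in every embryo. On the probes drawn, Six6, Rax, Dct, Col3a1 and Pecam1 differ widely between embryos, while Kdr and Prrx1 do not.

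Of 20 endothelial genes, 4 (20%, against 40.2% of all named genes) were above background throughout. Kdr, the main VEGF receptor of endothelium, read 7.18, 7.15 and 7.33, and the tight junction gene Cldn5 read 7.65, 8.07 and 7.14. Pecam1 read 6.92 in embryo 1 and 8.21 in embryo 3 and was not above background in embryo 2, and Cdh5 (6.05) was above background in embryo 1 alone. None of 13 macrophage genes was above background in every embryo. Aif1 read 8.10 and 7.81 in embryos 1 and 3, C1qb reached 7.94 in embryo 2 alone, and Ptprc, the common leukocyte marker, was not above background in any embryo. Of 10 skeletal muscle genes only Actc1 was above background throughout, at 5.60 ± 0.07, and the defining factors Myod1 and Myog were not above background on any array. The part of other tissues in the levels of genes shared with ectoderm was not tested.

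Most named genes differed little between the embryos, and a minority differed widely. The median SD was 0.39, 61.4% of the genes had all 3 arrays within 1 log2 unit of each other, and 889 (12.5%) had an SD above 1. The spread that the beads within each array would give had a median of 0.07, and the SD between embryos was typically 5.91 times as large. Spread depended on level. With the genes divided by level into 4 bins of equal size, from dimmest to brightest, the median SD was 0.16, 0.76, 0.52 and 0.25. Genes of the dimmest bin, at 5.22 to 6.22, lie close to the floor that background correction sets.

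Xist had the largest SD (2.82) and was the 1 gene of the 20 most variable that also lay in the brightest bin. The malic enzyme gene Me2 followed at 10.00, 5.93 and 9.99, then Specc1, a coiled-coil cytokinesis gene, at 8.77, 9.36 and 5.24, although its 2 other probes above background throughout were highest in embryo 3. Iqck read 9.27, 8.80 and 5.29, and Mob1b, a Hippo pathway kinase adaptor gene, read 9.64, 5.62 and 6.28. In each of these genes 1 or 2 embryos were bright and the rest were far dimmer. The rest of the 20 were Wnt9a, Actn4, Csnk1e, Alg5, Faap100, Endov, Syt7, Brd9, Dennd2d, Il17rd, Hbb-bt, Med12l, Cilk1, Gopc and Ppp1r3c, with SDs of 2.12 to 1.96. Il17rd, also called Sef, an inhibitor of FGF signalling, read 6.38, 9.74 and 9.88, and its second probe, at 6.91, 8.06 and 8.55, had the same order. The adult beta globin gene Hbb-bt read 8.63, 9.31 and 5.60. In 13 of the 20 the lowest embryo was under 5.55, the tenth percentile of levels. Embryo 3 was highest in 10, embryos 1 and 2 in 5 each. Over all named genes embryos 1, 2 and 3 were highest in 27.3%, 39.3% and 33.3%. Among the 200 most variable genes they were highest in 48, 79 and 73, so embryo 3 did not lead there.

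**Figure D5:**
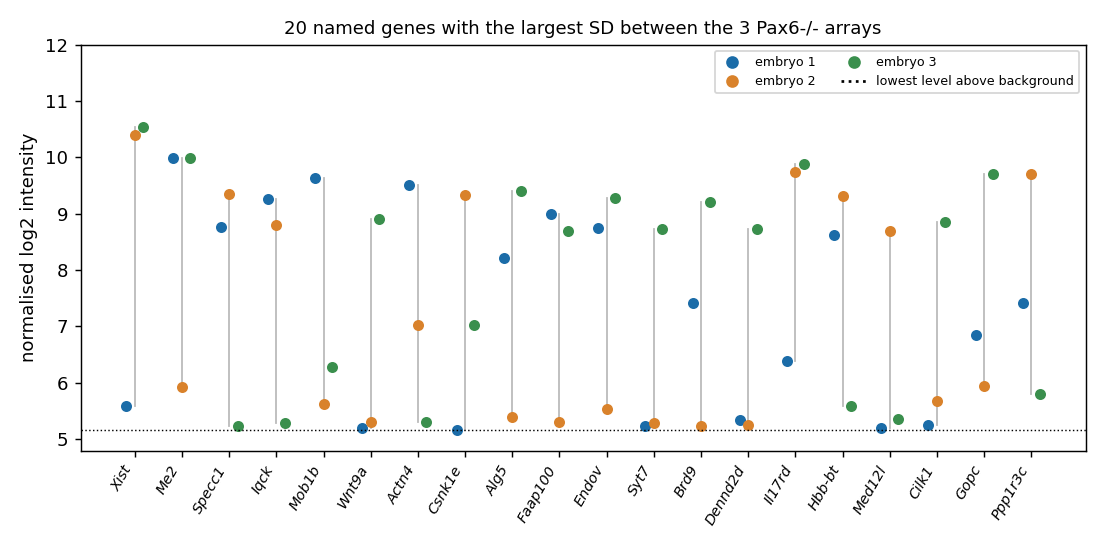
Normalised log2 intensity (y axis) of the 20 named genes with the largest SD between embryos (x axis), with 1 point per embryo and a grey line over their span, and the lowest level above background, 5.16, as a dotted line. In each gene at least 1 embryo lies above 8 and at least 1 lies below 7.

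Different probes of a gene often ordered the embryos differently. Of 1506 genes with 2 or more probes above background on all 3 arrays, the 2 brightest probes named the same embryo as highest in 594 (39.4%) and gave the same full order in 333 (22.1%). Unrelated orders of 3 embryos would give 33.3% and 16.7%. Deviations of the 3 arrays from the gene mean correlated at 0.099 between the 2 probes. For the 188 genes whose brighter probe had an SD above 1, the same embryo was highest in 70 (37.2%) and the correlation was 0.181. Restricting these to the 48 with a dimmer probe above a level of 7 gave 16 of the 48 (33.3%) and 0.338. The correlations are across genes, within shared arrays, and carry no test. The 2 Xist probes, in contrast, both separated embryo 1 from embryos 2 and 3. Among bright genes several were steady to within a few hundredths, among them the splicing factor gene Hnrnph1 (12.10, 12.09 and 12.09) and Nr2f1.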

How the data were processed

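Per the labels' protocols, 15 ng of total RNA per embryo was amplified to cDNA, biotin-labelled and hybridised to Illumina bead arrays. The deposited table gives, per the file headers, mean bead intensity per probe, its bead standard error (a signal), a count of beads (median 37, at least 7) and a detection p-value. GenomeStudio is named in the submitters' processing notes, with no version. The authors' processed intensity table, whose method is not given, ranks probes as the raw signal does and served as an alternative.

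The 3 Pax6-/- arrays were normalised together by neqc in limma 3.58.1 under R 4.3.3: normexp correction, with background read from the detection p-values, then an added offset of 16, quantile normalisation and log2. The offset compresses differences among dim genes, and quantile normalisation removes any difference in total RNA. Platform annotation named 29976 of 46632 probes with 1 symbol; 10 had several and 16646 none. By gene identifier, 29921 matched RefSeq (GRCm38.p6). The brightest probe above background on all 3 arrays stood for a gene.

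No test was made, since the arrays form 1 group of 3 embryos. The rule for named genes took the 20 brightest, the 15 brightest transcription factors, the 10 brightest ligands, the 20 with the largest SD, Pax6 and the 5 markers, and from each of 24 lists the 3 brightest and most variable members, up to 6, and up to 4 undetected ones. Further list members, genes above background on 1 or 2 arrays, second probes, Y-linked genes, the steady genes, those of the closing section and the globin promoters were chosen after their values were seen. Members and lists were chosen with earlier results of these data known. Median bead error was 3.51% to 3.69% of the signal, which covers error within an array only.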

Additional observations from a re-analysis of the deposited data

How the results depend on the processing

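No paired analysis was possible because the 3 arrays form a single group and no result comes from a test. A stricter detection p of 0.01 left 6756 of 12298 probes and 4294 of 7128 named genes above background on all 3 arrays. List counts fell along with that total. They went from 9 to 5 for red blood cell genes, 18 to 12 for mesenchyme and neural crest genes and 12 to 9 for surface ectoderm regulators. Of the 50 most variable genes, 7 were kept. The 68 genes followed one by one had a median level of 10.65, and 50 of these genes passed at 0.01. The median over those that passed was 11.38. None of them moved by over 1 SD, but levels were not recomputed here, so a gene that kept its probe could not move. Xist, at 5.60 in embryo 1, did not pass. Averaging a gene's probes kept 33 of the 50 brightest genes and lowered the median of the 68 to 9.52. The most variable genes depended on single arrays: leaving out each replicate in turn kept 17 to 28 of the 50, and without embryo 1 Xist fell to rank 5699 by SD. The other counts and medians stayed within 1.5 times or 1 SD of the values reported. Counts of genes above background use the same detection p-values under every normalisation, so they could not change there. Single genes moved more: of the same 68, 21 moved by over 1 SD when probes were averaged, 9 when all 6 arrays were normalised together, 5, 12 and 4 without embryo 1, 2 or 3, and 0 to 2 with a common median, cyclic loess, no background correction, an offset of 50 or the authors' table. Actb was brightest except with averaged probes and without embryo 2, where Snx10 was. Xist kept the largest SD in every setting where it passed, except without embryo 1. Values near 5.16 are close to background.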

Other observations

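Probes without a single gene symbol carried part of the signal. Of 16656 such probes, 10 of them with several symbols, 3155 (18.9%) were above background on all 3 arrays, against 30.5% of the named probes, and 20 of the 50 brightest probes of the arrays were such probes. The brightest unnamed probe stood at 14.70, above Actb at 13.19, so the genes named as brightest are so among named genes only.

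Among genes in the brightest of 4 equal bins by level, those that varied most after Xist were Ciapin1, an iron-sulphur cluster assembly gene (7.61, 9.98 and 10.76), and the mitochondrial ribosomal protein gene Mrpl1 (8.61, 7.37 and 10.35). The squalene epoxidase gene Sqle, of cholesterol synthesis, read 9.99, 7.50 and 9.69, lowest in embryo 2. These genes were chosen for their spread, which was not tested.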
